A study of Mus musculus with 3 samples.

Results

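The other Polycomb genes are 31 genes that encode subunits of the Polycomb repressive complexes PRC1 and PRC2 outside the Pcgf6 complex and the shared catalytic core. They were chosen by name, and their probes were found by matching the RefSeq accession of each array probe to a gene symbol. Of the 31 genes, 30 had at least 1 probe (46 probes in all), out of 20274 genes with a named probe. Auts2 had no matched probe and is not analysed here. Skp1a is listed under its current symbol, Skp1. At least 1 array read each of the 30 genes well above background, and 29 of them were read so on all 3 arrays. The exception was Cbx8.

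RNA came from male mouse embryonic stem cells grown on mouse embryonic fibroblasts inactivated with mitomycin-C, in serum with leukemia inhibitory factor. The 3 groups had 1 array each: wildtype, Pcgf6KO, which was edited with Cas9, and Pcgf6KO+ Pcgf6_flag, edited cells given Flag-tagged Pcgf6 by lentivirus. The labels do not say whether the edited cells were 1 clone or a pool, and they do not give the strain. The source names begin with muscle, whereas the cell type is given as embryonic stem cell. With 1 array a group there is no replicate check and no test. Levels are log2 of the processed spot signal minus the 75th percentile of that array, differences are in the same log2 units, and a difference is called here only where it reaches 2-fold, or 1 on the log2 scale.

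Polycomb complexes keep developmental genes silent through marks on histones. PRC1 ubiquitinates histone H2A through a RING1 protein paired with a PCGF protein, and the PCGF paralogue decides which complex forms. Canonical PRC1 holds Pcgf2 or Bmi1 with a CBX and a PHC protein. Variant PRC1 complexes are built on Pcgf1, Pcgf3, Pcgf5 or Pcgf6 and use other partners. PRC2 methylates histone H3 at lysine 27 through Ezh1 or Ezh2, and its accessory subunits set where it binds. In embryonic stem cells both complexes sit at CpG-rich promoters of lineage genes.

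The question was whether the level of any other Polycomb subunit differed where Pcgf6 was edited. None of the 29 members measured on all arrays reached 2-fold between Pcgf6KO and wildtype in either direction. The background was 8.6% of 14997 genes with a difference of 2-fold or more between those arrays, made up of 5.79% higher and 2.81% lower in the edited cells. Most of those genes were dim. Of the 8024 genes at or above the median level, a class that holds 22 of the 29 members, 1.46% reached 2-fold, so 0 of 29 lies near the share for genes of like brightness. The widest differences among the members were in the PCGF family itself, where Bmi1 was 1.52-fold lower and Pcgf5 1.45-fold higher in Pcgf6KO. Cbx8, the chromobox gene below background in wildtype, gave the only member difference past 2-fold, as a bound of at least 2.32-fold higher in Pcgf6KO. Such bounds were common: of 882 genes well above background on only 1 of these 2 arrays, 179 had a bound of 2-fold or more higher and 143 lower. On the array labelled Pcgf6KO+ Pcgf6_flag, PRC2 accessory genes and variant PRC1 genes read higher than in Pcgf6KO, led by Epop with 1.96-fold, which was still under the 2-fold rule. With this scaling, bright genes as a whole also read higher there. The median was 0.09 over the 3720 genes at a mean level of 2 or more. Of the genes in these groups, Epop, Jarid2, Mtf2, Usp7 and Skp1 were that bright. All genes at a mean level from 0 to 2 had a median of -0.004. Those from -2 to 0, where Phf1 and Fbrs lay, had -0.12, and those from -4 to -2, where Bcorl1 lay, had -0.19.

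Pcgf6 was read by 1 probe, at 1.87 in wildtype, 0.84 in Pcgf6KO and 0.43 on that array. The difference from wildtype was -1.03 in Pcgf6KO. The sources used here do not place the probe relative to the edit or to the lentiviral copy. Since Pcgf6 was not higher where the label names its return, that array is called the Flag-labelled array from here on, and each direction drawn from it rests on its label. It also lay alone on slide 2, whereas wildtype and Pcgf6KO shared slide 1, so slide and group cannot be told apart in its comparisons.

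Several properties of the arrays moved with these groups. Probes well above background made up 65.3% of all probes in wildtype, 66.0% in Pcgf6KO and 60.7% on the Flag-labelled array. Negative control spots had an SD of 8.80, 9.09 and 16.9 in processed signal, in the same order. The 15 pluripotency markers were all well above background on the 3 arrays, and their differences in Pcgf6KO against wildtype ran from -0.52 (Fgf4) to 0.50 (Tbx3), with -0.20 for Pou5f1, -0.10 for Nanog and -0.07 for Sox2. From Pcgf6KO to the Flag-labelled array they ran from -0.12 to 0.79, with Tfcp2l1 highest, and Esrrb with 0.58, Fgf4 with 0.49 and Nanog with 0.47 next. None reached 2-fold. Of 11 differentiation markers measured in both wildtype and Pcgf6KO, 3 were at least 2-fold higher in Pcgf6KO (Fgf5 with 1.85, Hand1 with 1.48 and T with 1.07) and 1 was lower (Sox1 with -2.27). From Pcgf6KO to the Flag-labelled array 4 of 9 were at least 2-fold lower, led by Cdx2 with -2.82 and T with -2.06. Over all genes, 5.79% were 2-fold higher and 2.81% lower in Pcgf6KO against wildtype. From Pcgf6KO to the Flag-labelled array 8.36% were lower. Dim genes, as many of these markers were, passed more often. At a mean level from -4 to -2, 347 of 2204 genes were higher in Pcgf6KO than in wildtype. In that range 539 of 2167 were lower on the Flag-labelled array than in Pcgf6KO. The part of these cell-state markers in the differences of the Polycomb genes was not tested. Of 23 fibroblast markers, all but Lum were well above background in wildtype, 20 in Pcgf6KO and 16 on the Flag-labelled array. Their scaled signal, summed, came to 94.5, 51.8 and 37.6 over those arrays. Of the 20 fibroblast markers measured in both wildtype and Pcgf6KO, 11 were at least 2-fold lower in Pcgf6KO and 0 higher. These compare with 2.81% of all genes lower and 5.79% higher. The markers were led by Mgp with -7.00, Lox with -4.04 and Fbln2 with -3.74. In a bulk sample of cells grown on feeders, fewer cells of a type and less RNA per cell cannot be told apart.

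Promoter sequences of 3 members are shown, and they were chosen after their values were seen. Bmi1 and Pcgf5 had the widest PCGF differences in each direction between Pcgf6KO and wildtype. Cbx8 had the only member difference past 2-fold in that comparison, as a bound. Each is the 250 bases before the most upstream RefSeq start in GRCm38.p6, 5′ to 3′ on the gene's strand. Capitals mark the letters CACGTG, an E-box of the kind the Pcgf6 partners Mga and Max bind, and GCGGGA or its reverse complement TCCCGC, the core of E2F sites, E2f6 being another partner. The motifs were searched on both strands and do not overlap one another in these windows.
Bmi1, chr2:18676768-18677017, plus strand: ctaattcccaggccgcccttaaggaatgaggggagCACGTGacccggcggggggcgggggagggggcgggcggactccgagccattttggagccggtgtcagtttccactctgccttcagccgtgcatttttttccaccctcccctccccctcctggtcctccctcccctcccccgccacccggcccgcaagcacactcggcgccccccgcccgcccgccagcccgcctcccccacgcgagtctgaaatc
Pcgf5, chr19:36348079-36348328, plus strand: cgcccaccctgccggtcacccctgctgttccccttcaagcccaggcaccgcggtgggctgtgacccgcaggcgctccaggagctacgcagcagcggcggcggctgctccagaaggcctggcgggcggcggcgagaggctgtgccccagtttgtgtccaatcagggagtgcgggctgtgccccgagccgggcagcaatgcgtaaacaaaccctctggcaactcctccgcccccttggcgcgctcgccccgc
Cbx8, chr11:119040914-119041163, minus strand: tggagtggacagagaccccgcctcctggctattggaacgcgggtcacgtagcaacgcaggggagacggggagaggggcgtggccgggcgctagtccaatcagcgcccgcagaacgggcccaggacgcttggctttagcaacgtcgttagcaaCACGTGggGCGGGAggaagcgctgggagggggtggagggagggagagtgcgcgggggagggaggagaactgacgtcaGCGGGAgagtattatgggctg

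The Bmi1 window held 1 E-box match and 0 E2F-type matches, the Pcgf5 window neither, and the Cbx8 window 1 and 2. Of 27 members with a promoter window, 8 held CACGTG in at least 1 window, against 6.86% of 27025 genes of all kinds. The 8 genes were Bmi1, Pcgf2, Phc2, Phc3, Cbx6, Cbx8, Rbbp4 and Bcorl1. The E2F-type letters were in 10 of the 27, against 18.8% of all genes, with Pcgf5 among them through another of its 3 windows. Many genes in that background are noncoding or predicted, and base composition was not matched. A match in these letters is a description and does not show that a protein binds there.

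The 5 PCGF paralogues were all measured on the 3 arrays. Pcgf1, of the variant complex with Kdm2b and Bcor, was at 1.07 in wildtype, 0.72 in Pcgf6KO and 1.18 on the Flag-labelled array. Pcgf2, also called Mel18 and a canonical PRC1 subunit, was at 0.25, 0.29 and 0.35 in the same order. The levels of this brighter Pcgf2 probe lay within 0.10 of each other, whereas its dimmer probe, at -1.24, -1.37 and -0.97, was 0.40 higher on the Flag-labelled array than in Pcgf6KO. For Pcgf1 the Pcgf6KO array was lowest, and the difference of 0.11 between the Flag-labelled array and wildtype was below the scanner error and changed sign with scaling. Bmi1, the other canonical paralogue, stood at -0.36, -0.96 and -1.14, highest in wildtype. Pcgf3 and Pcgf5 each form a variant complex with Auts2 or Fbrs family proteins. Pcgf3 read -2.65, -2.44 and -2.78, and Pcgf5 1.28, 1.82 and 1.04, so both were highest in Pcgf6KO.

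**Figure D1:**
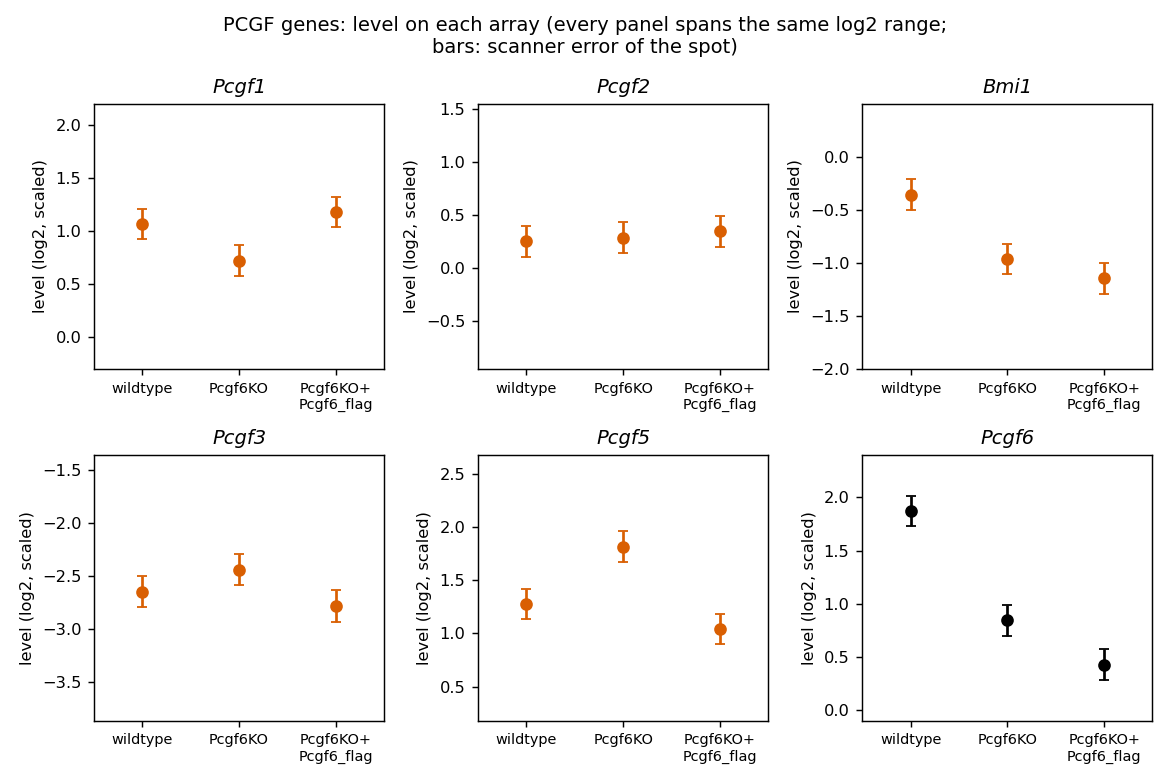
Scaled log2 level (vertical axis) of the 5 PCGF paralogues and of Pcgf6 on the wildtype, Pcgf6KO and Pcgf6KO+ Pcgf6_flag arrays (horizontal axis). Each point is 1 spot on 1 array, bars are the scanner software's error of that spot, and every panel spans the same log2 range but starts at its own level. Pcgf6 drops from 1.87 to 0.84 and 0.43, Bmi1 from -0.36 to -0.96 and -1.14, and Pcgf5 peaks at 1.82 in Pcgf6KO.

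These differences can be set against 2 measures of technical error. The scanner software's error for a difference of 2 spots had a median of 0.20 log2 units over the members, and repeated spots of one probe gave an SD of 0.13 for a difference between Pcgf6KO and wildtype. Neither covers variation between cultures. Bmi1 differed by -0.61 and Pcgf5 by 0.54 in Pcgf6KO, both more than 2 scanner errors from 0. Pcgf1 with -0.35, Pcgf3 with 0.21 and Pcgf2 with 0.04 did not differ from wildtype by that much. More than 2 scanner errors above 0 were 15.9% of all genes, and 12% as far below, against 1 member (Pcgf5) above and 2 (Bmi1 and Epop) below.

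Of the 3 PCGF paralogues with 2 probes, Bmi1 and Pcgf5 read the same direction on both in Pcgf6KO, and Pcgf2, with 0.04 and -0.12, did not. The dimmer Bmi1 probe stood at -2.57 in wildtype, -3.34 in Pcgf6KO and -3.69 on the Flag-labelled array, a difference of -0.77 in Pcgf6KO and of -1.12 on the Flag-labelled array against wildtype. The second Pcgf5 probe was at 1.34, 1.77 and 0.98, with 0.43 in Pcgf6KO against wildtype and -0.79 from Pcgf6KO to the Flag-labelled array. For Bmi1 the order of the arrays was that of the summed fibroblast markers, with wildtype highest and the Flag-labelled array lowest, and the part of feeder RNA in this difference was not tested. Pcgf5 did not share that order. It was not particular to Bmi1, since Phc1, Eed, Rbbp7 and Pcgf6 had the same order of arrays on their brightest probes.

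Among the other canonical PRC1 genes, the chromobox genes encode the subunits that read the PRC2 mark, and the PHC genes encode the polyhomeotic subunits that let complexes cluster. Cbx7 was at 1.45 in wildtype, 1.78 in Pcgf6KO and 1.81 on the Flag-labelled array, so it was higher by 0.32 and 0.36 in both edited cultures. Cbx2 read 1.09 in wildtype and 0.92 in Pcgf6KO, and differed from wildtype by 0.01 on the Flag-labelled array. Cbx6 read 1.70, 1.57 and 1.65. The levels of Cbx2 and Cbx6 thus moved by less than 0.20, which is below the scanner error of a difference.

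Cbx8 gave processed signals of 32.9 ± 13.8 in wildtype, 134 ± 19.3 in Pcgf6KO and 98.7 ± 27.7 on the Flag-labelled array, where ± is the scanner error of 1 spot. Only the Pcgf6KO spot was well above background. Against the lowest signal well above background on the wildtype array, 52.7, and after scaling, Cbx8 was at least 2.32-fold higher in Pcgf6KO than in wildtype. On the Flag-labelled array, where the lowest such signal was 103, the same rule gave a bound of 1.40-fold lower than in Pcgf6KO. No fold is given against wildtype there, since both spots were below background. All of this rests on a single dim spot per array, and the bounds take no account of spot error. In Pcgf6KO against wildtype the spots differed by 1.90 after scaling, with a scanner error of 0.64. From Pcgf6KO to the Flag-labelled array they differed by -0.55, with a scanner error of 0.46.

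The polyhomeotic genes differed little in Pcgf6KO. Phc1 was at 3.12, 3.04 and 2.84 in wildtype, Pcgf6KO and the Flag-labelled array, and Phc3 at -0.80, -0.66 and -0.78. Phc2 read -0.41, -0.13 and -0.97, a difference of 0.28 in Pcgf6KO and of -0.84 from Pcgf6KO to the Flag-labelled array. Phc2 thus had the lowest difference of any member in that second comparison, followed by Pcgf5 with -0.78. Those 2 were also the members at least 1.5-fold lower there, against 14.9% of all 14241 genes measured on both arrays. At or above the median level this was 1 of 22 members (Pcgf5), against 5.73% of genes. A second Phc3 probe was well above background in Pcgf6KO only.

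The variant PRC1 genes encode partners of Pcgf1 (the CpG-binding demethylase Kdm2b, the corepressors Bcor and Bcorl1, the deubiquitinase Usp7 and the adaptor Skp1) and of Pcgf3 and Pcgf5 (Fbrs). On their brightest probes, all 6 measured genes differed from wildtype by no more than 0.14 in size in Pcgf6KO, with a range from -0.14 to 0.12. On the Flag-labelled array all 6 read above Pcgf6KO on these probes and with this scaling, with a median of 0.35. Of the genes at or above the median level, 4583 of 8024 also read above Pcgf6KO there. The sign was not stable for Kdm2b, which ran from -0.07 to 0.02 over the scaling and background settings, nor for Skp1, which ran from -0.06 to 0.20. The other probes of Kdm2b and Usp7 read lower there, by -0.07 and -0.29. Bcor was at 0.61 in wildtype, 0.73 in Pcgf6KO and 1.29 on the Flag-labelled array. Bcorl1 read -2.49, -2.51 and -2.02, and Fbrs -0.80, -0.94 and -0.33. For these 3 genes the 2 arrays on slide 1 were close to each other and the Flag-labelled array was higher, by 0.56, 0.49 and 0.61 than Pcgf6KO.

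Kdm2b stood at 1.79, 1.65 and 1.67 on its brighter probe. Its other probe read 1.48 in wildtype, and differed from wildtype by -0.31 in Pcgf6KO and by -0.38 on the Flag-labelled array, so the size of the difference depended on the probe. Skp1 read 4.69, 4.65 and 4.85, which is within the scanner error of a difference. Usp7 read 2.45, 2.34 and 2.54 on its brighter probe. Its dimmer probe read 0.77, 0.36 and 0.07, so the probes were 0.79 apart in the difference between the Flag-labelled array and wildtype and had opposite signs.

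The PRC2 core comprises the methyltransferases Ezh1 and Ezh2, the scaffold Suz12, the mark-reading Eed and the histone-binding Rbbp4 and Rbbp7. In Pcgf6KO their differences ran from -0.40 to 0.10, with a median of -0.13. Ezh2 was at 1.47 in wildtype, 1.33 in Pcgf6KO and 1.54 on the Flag-labelled array. Eed read 2.85, 2.74 and 2.71, and Suz12 3.23, 3.27 and 3.35. No 2 arrays differed by more than 0.21 for any of these 3 subunits, close to the scanner error of a difference.

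Rbbp4 read 3.21, 2.81 and 3.22 on its brighter probe, lower by 0.40 in Pcgf6KO than on the other arrays. On its dimmer probe the difference from wildtype was 0.13, so the direction was not shared. Rbbp7 read 4.17, 3.98 and 3.82, and its other probe was also lowest on the Flag-labelled array but highest in Pcgf6KO. Both histone-binding proteins also belong to other chromatin complexes.

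Ezh1 was the core gene that stood apart on the Flag-labelled array, at 1.37 in wildtype, 1.47 in Pcgf6KO and 2.13 there. The difference was 0.76 against wildtype and 0.65 against Pcgf6KO. A second probe, at 1.13, 0.93 and 1.67, gave 0.54 and 0.73, and the remaining, dim probe at -4.64, -4.49 and -3.30 gave 1.34 and 1.18. All 3 probes thus read highest on the Flag-labelled array. Among genes with a mean level below -4 measured on both arrays, the median difference was 0.44 against Pcgf6KO and 0.42 against wildtype. Those medians cover only genes well above background on both arrays, 1057 of 2825 against Pcgf6KO. The lowest such signal was 103 on the Flag-labelled array and 53.4 in Pcgf6KO, so the filter itself favours high readings there. The medians therefore do not describe dim probes as a whole, and give no background for the dim Ezh1 probe. The dimmer Bcorl1 probe, at -4.21, -4.02 and -3.01, had a mean level above -4. Of genes with a mean level from -4 to -2, 2167 of 2206 were measured on both Pcgf6KO and the Flag-labelled array. Their median difference was -0.19, and 248 of them were at least 2-fold higher on the Flag-labelled array.

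Jarid2 and Aebp2 mark one form of PRC2, and Mtf2, Phf1, Phf19 (the Polycomb-like proteins) and Epop (an Elongin BC-binding protein) the other. In Pcgf6KO 5 of these 6 genes read below wildtype, with a median of -0.29, and Aebp2 with 0.23 was the exception. From Pcgf6KO to the Flag-labelled array all 6 read higher, with a median of 0.43. Over all genes those medians were -0.03 and 0.03, and over genes at a mean level of 2 or more they were -0.10 and 0.09. Of the 8024 genes at or above the median level, 5001 read below wildtype in Pcgf6KO. On the Flag-labelled array 4583 of them read above Pcgf6KO. Aebp2 was higher there by only 0.10, below its scanner error of 0.20, and ran from 0.01 to 0.19 over the scaling and background settings. Both comparisons contain the same Pcgf6KO array, so they are not independent.

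Epop was at 3.55 in wildtype, 3.14 in Pcgf6KO and 4.11 on the Flag-labelled array, highest there and lowest in Pcgf6KO. The differences were -0.41 in Pcgf6KO against wildtype, 0.97 from Pcgf6KO to the Flag-labelled array and 0.56 between the Flag-labelled array and wildtype. With normexp background correction the second was 1.14 and passed 2-fold. Phf1 stood at -1.40 in wildtype and -1.80 in Pcgf6KO, and was 0.40 above wildtype on the Flag-labelled array. Phf19 stood at 0.95, 0.82 and 1.43. The 2 genes had differences of 0.80 and 0.61 from Pcgf6KO to the Flag-labelled array. The second, dim Phf1 probe, at -5.35, -5.11 and -4.77, did not share the lower reading in Pcgf6KO.

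Jarid2 read 3.67, 3.30 and 3.55, and Mtf2 2.51, 2.30 and 2.54, so both were lowest in Pcgf6KO by a small margin. Both Mtf2 probes differed by -0.21 in Pcgf6KO. Aebp2 read 0.34, 0.57 and 0.67, lowest in wildtype, and its second probe differed from wildtype by 0.02 in Pcgf6KO and 0.28 on the Flag-labelled array.

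**Figure D2:**
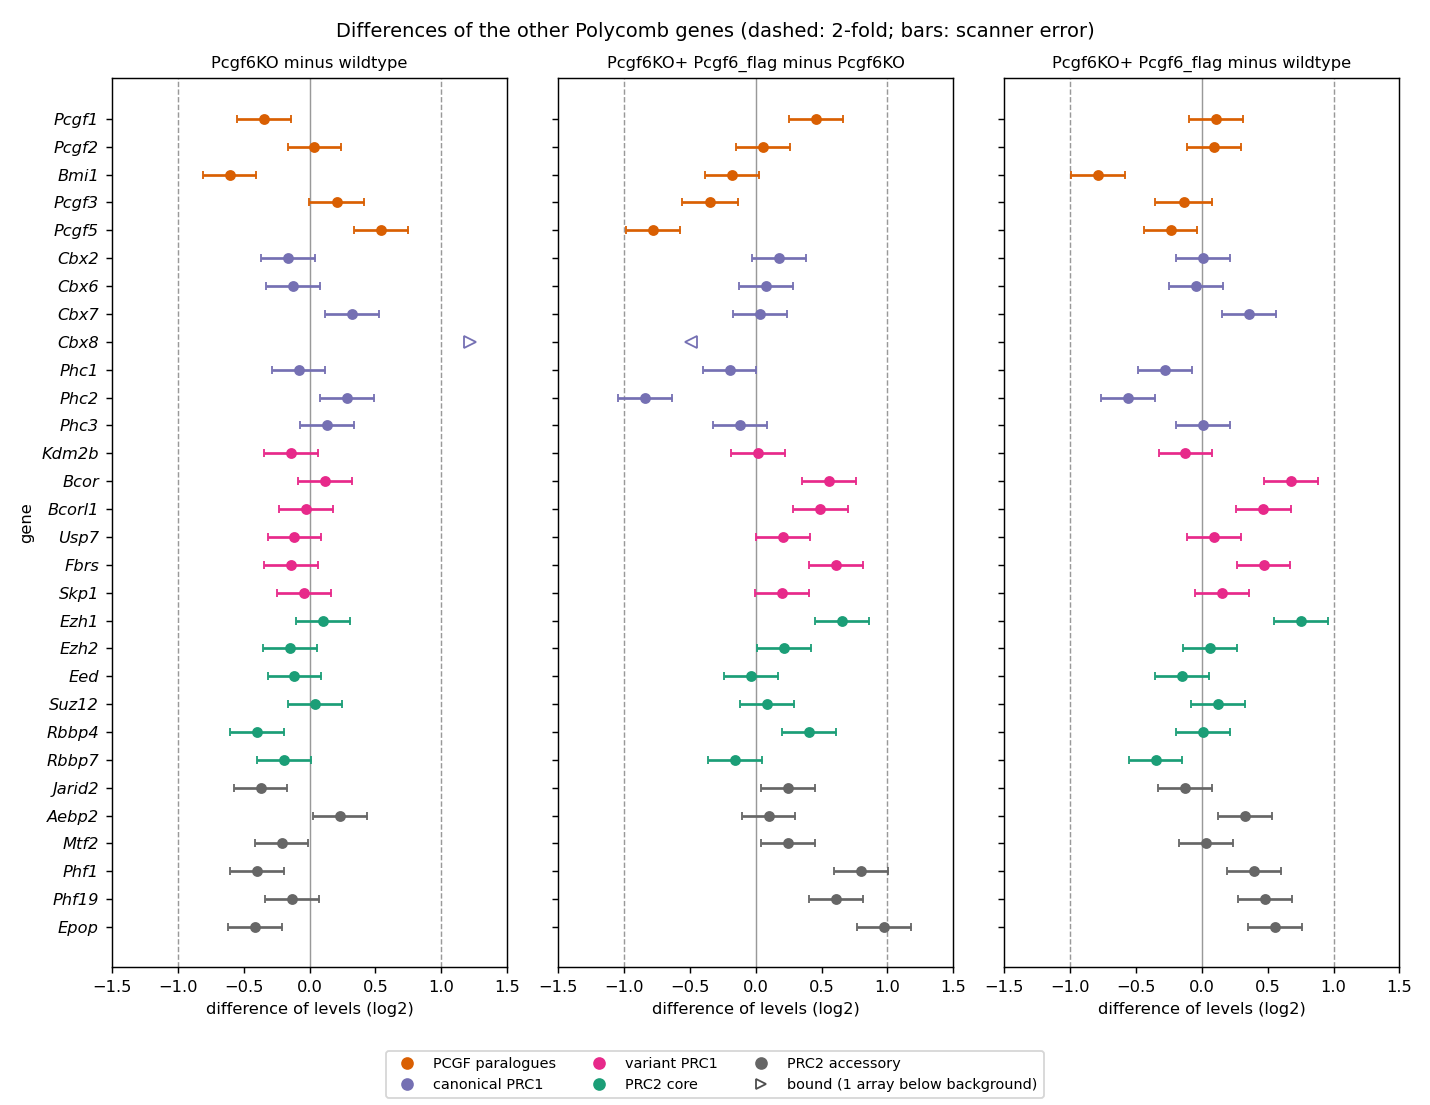
Difference of scaled log2 levels (horizontal axis) for each of the 30 genes with a probe (vertical axis), in the 3 comparisons (panels). Points are differences of 1 array each, coloured by role, bars are the combined scanner error and dashed lines mark 2-fold. Every filled point lies between the dashed lines, with Epop nearest at 0.97 in the middle panel. The open triangles give Cbx8 as bounds of 1.22 and -0.49.

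Across the members, the median difference in Pcgf6KO was -0.11, with a range from -0.61 to 0.54, and 19 of 29 read below wildtype. So did 7968 of all 14997 genes, 5001 of the 8024 at or above the median level and 2680 of the 3720 at a mean level of 2 or more. Over all genes measured on both arrays the median was -0.03, and it was -0.07 over the 8024 genes at or above the median level. The median size of a difference, without its sign, was 0.15 for the members, 0.23 for all genes and 0.16 for those brighter genes. The 10 members with a mean level of 2 or more, among them Eed, Suz12, Rbbp4, Jarid2 and Epop, had a median of -0.15, and all 3720 genes in that range had -0.10. With this scaling the brightest genes as a whole thus read slightly lower in Pcgf6KO. The median of all genes depended on scaling. It was -0.06 when arrays were scaled to the median of all probes and 0.01 with quantile normalization.

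At the lower threshold of 1.5-fold, Bmi1 was the 1 member that was lower in Pcgf6KO, against 7.53% of all genes, and no member was higher, against 11.7%. At or above the median level those shares were 3.3% and 2.57% of genes, and 0 of 22 members. From Pcgf6KO to the Flag-labelled array the median over the members was 0.18 and over all genes 0.03. In that comparison 5 members (Epop, Phf1, Phf19, Ezh1 and Fbrs) were at least 1.5-fold higher, or 17.2% of 29, against 12.7% of all genes. At or above the median level these were 3 of 22 members (Epop, Ezh1 and Phf19), against 5.63% of genes. By more than 2 scanner errors 8 members were higher there, against 18.4% of all genes, and 2 were lower, against 20%. At 2-fold 0 of 29 members were called in either direction on their brightest probes, against 13.8% of all genes, 5.43% higher and 8.36% lower. At or above the median level that share was 2.9% of genes. Dimmer probes of Ezh1 and Bcorl1 did pass 2-fold there, with 1.18 and 1.01.

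Between the Flag-labelled array and wildtype the median over the members was 0.07 and over all genes -0.02. Ezh1 with 0.76 and Bcor with 0.68 were at least 1.5-fold higher, against 10.9% of all genes, and Bmi1 with -0.78 was the 1 member lower, also against 10.9%. Together these were 3 of 29 members, or 10.3%, against 21.9% of all genes. At or above the median level these were 2 of 22 members (Bcor and Ezh1), both higher. There 3.44% of genes were higher and 8.01% passed in either direction. On the brightest probes no member reached 2-fold, against 9.72% of all genes, 4.91% higher and 4.81% lower, and 1.94% of genes at or above the median level. Dimmer probes of Ezh1 with 1.34, Bcorl1 with 1.20 and Bmi1 with -1.12 did. The sign of the median over the members depended on scaling, and it was -0.06 when arrays were scaled to the median of all probes. The 3 comparisons share arrays pairwise, and their values are given side by side for that reason only.

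**Figure D3:**
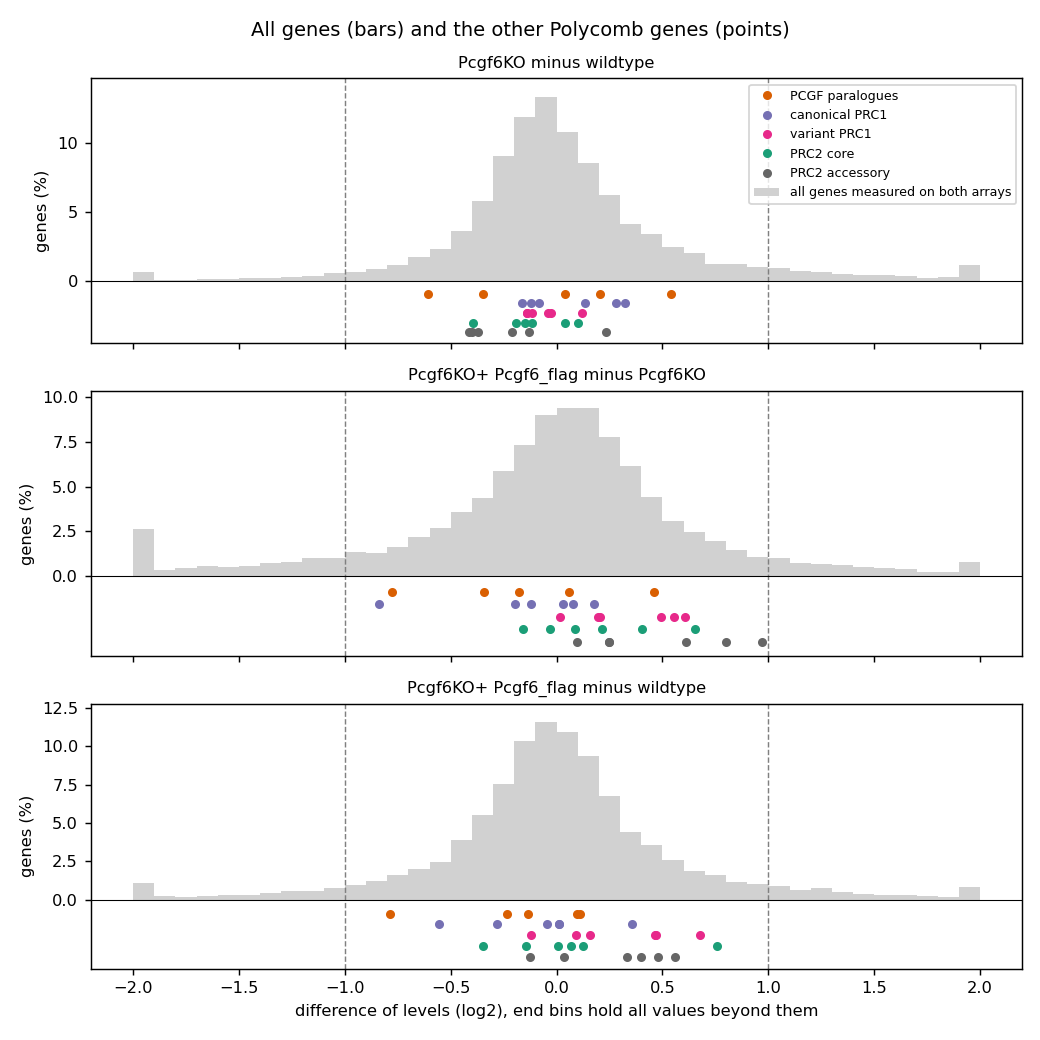
Share of all genes measured on both arrays (grey bars, vertical axis in percent) by their difference of log2 levels (horizontal axis, bins of 0.1), for the 3 comparisons, with the measured members as points below the bars, in one row per role. Dashed lines mark 2-fold, and the outermost bins also hold all larger differences. All member points lie inside the dashed lines, whereas 5.79% of genes lie above the upper line and 2.81% below the lower one in the first panel.

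Of the 14 members with several probes, 13 had at least 2 probes measured on both arrays of each comparison. In Pcgf6KO against wildtype the probes had the same sign in 6 of these 13 genes, namely Bmi1, Pcgf5, Kdm2b, Usp7, Aebp2 and Mtf2, and opposite signs in 7. From Pcgf6KO to the Flag-labelled array the sign was shared in 10 of 13, and between the Flag-labelled array and wildtype in 11 of 13. In each comparison the probes of 6 genes lay at least 2 spot SDs apart. For genes such as Cbx6, whose 3 probes gave -0.12, 0.04 and -0.44 in Pcgf6KO, the direction of so small a difference was thus not shared between probes.

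**Figure D4:**
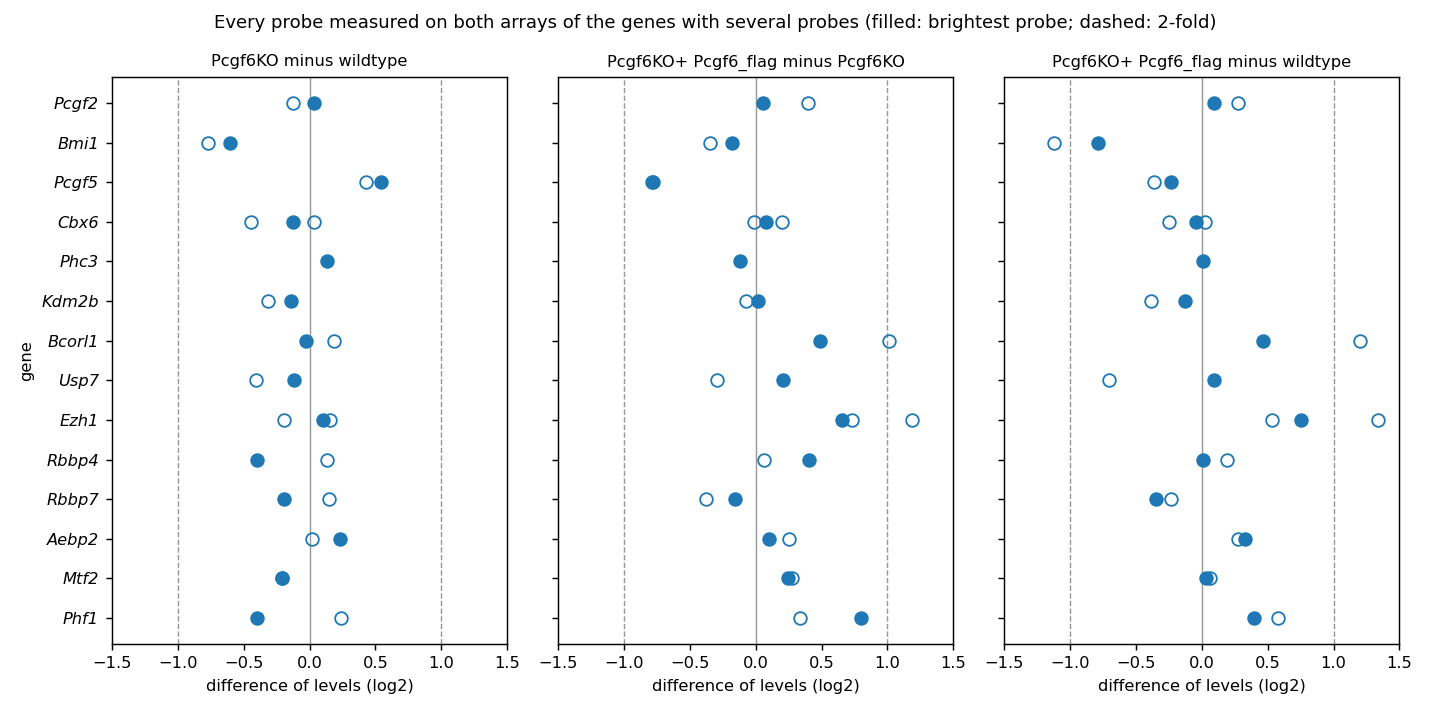
Difference of scaled log2 levels (horizontal axis) for every probe measured on both arrays of the 14 members with several probes (vertical axis), in the 3 comparisons (panels). Filled circles are the brightest probe of each gene, open circles the others, and dashed lines mark 2-fold. Both circles of Bmi1 and of Pcgf5 lie on one side of 0 in the first panel, whereas those of Phf1 and Rbbp4 lie on opposite sides.

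The genes of the Pcgf6 complex and of the core shared by all PRC1 complexes were read for comparison. Of these 15 genes only Pcgf6 passed 2-fold in Pcgf6KO against wildtype, and 0 were higher. The catalytic and bridging subunits Ring1, Rnf2 and Rybp differed by -0.19, 0.04 and -0.08. Yaf2, a homologue of Rybp, was at 0.11, 0.80 and -0.36. It was the 1 gene of this list lower by 2-fold from Pcgf6KO to the Flag-labelled array, against 8.36% of all genes. Yaf2 differed there by -1.16 on one probe and -1.12 on the other. E2f6 read 1.76, 2.32 and 1.54, and the deacetylase gene Hdac2 0.54, 1.29 and 0.61, both highest in Pcgf6KO like Pcgf5.

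A further list held 27 other genes tied to Polycomb silencing, such as subunits of the H2A deubiquitinase complex, H3K27 demethylases and MBT-domain proteins. Of these, 26 had a probe and 25 were measured on all arrays. None passed 2-fold in Pcgf6KO against wildtype, against 8.6% of all genes. From Pcgf6KO to the Flag-labelled array, Mbd5 was higher by 1.08, and L3mbtl3 with -1.33 and Asxl3 with -1.23 were lower. That was 1 of 25 genes higher and 2 lower, against 5.43% and 8.36% of all genes. Mbd5 was dim, at -3.81 and -2.73 on these arrays. Asxl3 was dim as well, at -3.71 and -4.95, with a signal of 150 on the Flag-labelled array, where the lowest well above background was 103. Its other probe was below background on every array. Asxl3 was also lower than in wildtype on the Flag-labelled array, by -1.56. It was the 1 gene of this list past 2-fold in that comparison, against 9.72% of all genes. The median of the 25 genes was -0.11 in Pcgf6KO, 0.06 from Pcgf6KO to the Flag-labelled array and -0.02 between the Flag-labelled array and wildtype.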

How the data were processed

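RNA was measured on 3 one-colour Agilent arrays, 1 per group. Per the file headers, the deposited scanner files hold spot intensity on a linear scale from Agilent Feature Extraction 11.5.1.1, background-subtracted, on a design annotated on mm9. The submitters' processing notes name version 10.7. For all 55249 probes with a single spot, the deposited value table equalled the processed intensity within a relative tolerance of 1e-06, and its column medians were 243, 273 and 313. That table is thus linear, unscaled and uncentred, and it holds no ratio.

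Control spots and the 141, 158 and 192 outlier spots of the wildtype, Pcgf6KO and Flag-labelled arrays were left out. Spots of a probe were averaged. Levels are log2 of the processed signal minus the 75th percentile of the array, which was 3915, 4293 and 4616. A probe was taken as measured on an array if over 50% of its spots were well above background, and 0 spots were saturated. A gene was read from its brightest measured probe. Where 1 of 2 arrays was below background, the difference is a bound, taken against the dim array's lowest signal well above background or, if higher, the dim spot itself. Accessions without versions were matched to RefSeq of GRCm38.p6, which named 26746 of 55647 probes. The gene steps were tested on simulated data. No test was possible with 1 array per group, whose number limits the precision.

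The rule named every member, pathway genes past 2-fold together with Pcgf6, and up to 4 markers per list. Other genes of those lists (Ring1, Rnf2, Rybp, E2f6, Hdac2, Esrrb and Cdx2) were chosen after their values were seen. The members and lists were chosen with earlier results of these data known. Alternatives were normexp background correction (offset 50, on the median spot signal, limma 3.58.1), other scalings, the value table, other probe rules and other thresholds. Shares over the genes at or above the median level, and counts of bounds and of sign changes, were added after seeing the data. Slide as a block could not be fitted. The software was R 4.3.3 with limma, and Python 3.11.15 with pandas 2.3.3 and numpy 2.4.6.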

Additional observations from a re-analysis of the deposited data

How the results depend on the processing

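With 1 array per group, the values below have no replicate check, and signal over background limits what dim probes such as Cbx8 can show. No paired analysis was possible because each group has 1 array and no test was run. The count of members past 2-fold, 0 in either direction of all 3 comparisons, moved in 2 kinds of setting. Without a filter on dim probes, 1 member (Cbx8) was higher in Pcgf6KO and 1 on the Flag-labelled array, both against wildtype. With normexp correction 1 member (Epop) was higher on the Flag-labelled array than in Pcgf6KO. At 1.5-fold the counts were 1 lower in Pcgf6KO, 5 higher and 2 lower from Pcgf6KO to the Flag-labelled array, and 2 higher and 1 lower between the Flag-labelled array and wildtype. At 3-fold they stayed 0.

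The median over the members ran from -0.15 to -0.05 in Pcgf6KO against wildtype and from 0.09 to 0.19 from Pcgf6KO to the Flag-labelled array, over the main setting and the scaling and background alternatives. Against wildtype on the Flag-labelled array it ran from -0.06 to 0.11. Scaling to the median of all probes moved the median of all genes in that last comparison from -0.02 to -0.14, and the 2-fold calls over all genes from 697 higher and 682 lower to 553 and 860. In the order of comparisons used above, 2, 7 and 10 of the 29 single member differences took the opposite sign in 1 or more of the scaling and background settings, and their main values were at most 0.04, 0.20 and 0.14 in size. Normexp correction moved 0, 10 and 8 of 29 by at least the spread of repeated spots, and quantile normalization 1, 3 and 0. Taking the mean over probes moved 4, 6 and 4 of the 13 genes with several probes. The cause was not tested.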

Other observations

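The 16812 probes that were below background on every array had a median difference of 0.84 between the Flag-labelled array and Pcgf6KO, 0.79 against wildtype and -0.07 between Pcgf6KO and wildtype. Sfmbt2, of the MBT-domain genes in the further Polycomb list, was read by 3 probes whose differences in Pcgf6KO against wildtype were -0.45, -0.91 and -0.60, all in one direction. On the Flag-labelled array the brightest of them differed from wildtype by -0.23 and the others were 2.10-fold and 2.82-fold lower than in wildtype. Sfmbt2 was chosen after its values were seen.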
